A study of Mus musculus with 4 samples.

Results

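Zscan4, Tcstv and related genes of the 2-cell-like state were followed across 4 mouse embryonic stem (ES) cell lines. The set holds 10 genes: Zscan4c, Zscan4d, Zscan4f, Tcstv1, Tcstv3, Zfp352, Tdpoz3, Tdpoz4, Tmem92 and Usp17la. They were chosen by their measured signals in these same lines, mainly by the gap between Nup98-HoxA9 clone #1 and clone #9, and the probes were found through the RefSeq transcript that the array assigns to each spot. Zscan4d had no probe under this rule and was dropped, which left 9 genes of the 20257 that could be named, read by 13 probes of 1 spot each. Because the choice rests on these values, the differences of the 9 genes are a description and were given no test.

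All lines derive from EB3, a mouse ES cell line grown on gelatin with serum and LIF. Clone #1 and clone #9 carry a Tol2 transposon that expresses FLAG-tagged Nup98-HoxA9, a leukaemia fusion of the FG repeats of the nucleoporin Nup98 with the C-terminal part of HoxA9. The HoxA9-Ct ES line carries the HoxA9 part alone, which holds the homeodomain, and the parental ES line is the starting population without a transgene. Each transgenic line was picked as a hygromycin-resistant colony, so a line is 1 clone and was hybridised to 1 array, and only Nup98-HoxA9 ES is represented by 2 lines.

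A small and changing fraction of cultured mouse ES cells passes through a state that resembles the embryo at its 2-cell stage. Such cells transiently express genes of the early embryo, among them the Zscan4 cluster, whose proteins are linked to telomere maintenance and genome stability, and they are known to be driven by the transcription factor Dux. Many of these genes lie in clusters of nearly identical copies, so a probe named for 1 copy may also read the others. In RNA from a whole culture, fewer cells in the state and less of the transcript per cell cannot be told apart.

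The sequence upstream of 4 of the genes is shown because 3 of them were far apart between the clones at their brightest probe and 1, Zfp352, was not. Each line gives the 250 bases before the annotated transcription start from RefSeq (GRCm38.p6), read 5′ to 3′ on the strand of the gene, with the letters TATAAA in capitals where they occur. An entry was present for 6 of the 10 genes.
Zscan4c, chr7:11005495-11005744, plus strand: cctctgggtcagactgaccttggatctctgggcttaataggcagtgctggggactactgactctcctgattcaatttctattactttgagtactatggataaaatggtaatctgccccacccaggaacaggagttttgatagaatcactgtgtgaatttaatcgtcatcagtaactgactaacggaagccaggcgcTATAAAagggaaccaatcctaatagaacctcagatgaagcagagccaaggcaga
Zscan4f, chr7:11397665-11397914, plus strand: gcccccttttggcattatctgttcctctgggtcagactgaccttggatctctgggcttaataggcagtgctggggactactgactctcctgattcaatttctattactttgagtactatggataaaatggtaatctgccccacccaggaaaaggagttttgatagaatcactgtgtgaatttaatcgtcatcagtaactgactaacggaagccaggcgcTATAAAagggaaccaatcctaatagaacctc
Usp17la, chr7:104856766-104857015, plus strand: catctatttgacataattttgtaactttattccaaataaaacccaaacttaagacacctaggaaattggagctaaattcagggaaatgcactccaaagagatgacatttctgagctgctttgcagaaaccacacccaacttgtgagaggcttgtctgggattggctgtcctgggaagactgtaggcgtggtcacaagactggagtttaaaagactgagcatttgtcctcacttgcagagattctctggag
Zfp352, chr4:90218570-90218819, plus strand: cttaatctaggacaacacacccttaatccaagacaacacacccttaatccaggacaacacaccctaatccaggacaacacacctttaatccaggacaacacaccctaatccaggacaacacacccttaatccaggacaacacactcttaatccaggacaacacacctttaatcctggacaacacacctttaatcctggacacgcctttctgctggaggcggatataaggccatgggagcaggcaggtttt

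The Zscan4 windows are close to copies of each other. The window of Zscan4c aligned with that of Zscan4f over 227 columns at 99.6% identity, and with that of Zscan4d, the member without a probe, over 238 columns at 97.5%. TATAAA on the strand of the gene was present in the windows of Zscan4c, Zscan4d and Zscan4f and in none of the other 3 member windows (Zfp352, Tdpoz4 and Usp17la), against 7.59% of 32851 promoters of the same length. GATTNAATC, letters of the kind bound by Dux, was searched on both strands and was in none of the 6 member windows and in 0.247% of all promoters. Among the other 2-cell-like genes described further on it was present upstream of AF067061, Gm4340, Pramel17 and Pramel31, 4 of 23 windows.

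The arrays were comparable in brightness. The 75th percentile of the processed signal lay between 209 and 253 units of fluorescence, and the scanner software called between 49.9% and 53.0% of spots well above background. Levels are given below as processed signal, and differences on the log2 scale after each array was divided by its 75th percentile. The spread of repeated spots can be had from 399 probes with 10 spots each, whose median SD was between 0.105 and 0.118 on the log2 scale and rose to between 0.224 and 0.243 for probes more than 4-fold below the percentile. The error that the scanner software attached to the member spots above background reached at most 20.2% of the signal. These errors describe spots on 1 array and not separate cultures.

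Of the 9 genes, 7 were more than 2-fold lower in clone #1 than in clone #9 and 0 were more than 2-fold higher. Over all 55562 probes the shares were 5.49% lower and 3.20% higher, and since this contrast chose the genes, nothing is read from the distance to those shares. The median of the 9 genes was -4.49 (log2, clone #1 minus clone #9), beside 0.17 for all probes. Clone #9 lay above parental ES (median 1.90) and clone #1 lay below it (median -2.62), whereas HoxA9-Ct ES lay close to parental ES (median -0.10). Several members were not well above background in clone #1, and with such signals set to the lowest one above background the medians were -3.54 between the clones, 1.54 for clone #9 and -1.73 for clone #1. Over all probes, the median difference from parental ES was 0.06 for HoxA9-Ct ES, -0.10 for clone #1 and -0.27 for clone #9.

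**Figure D1:**
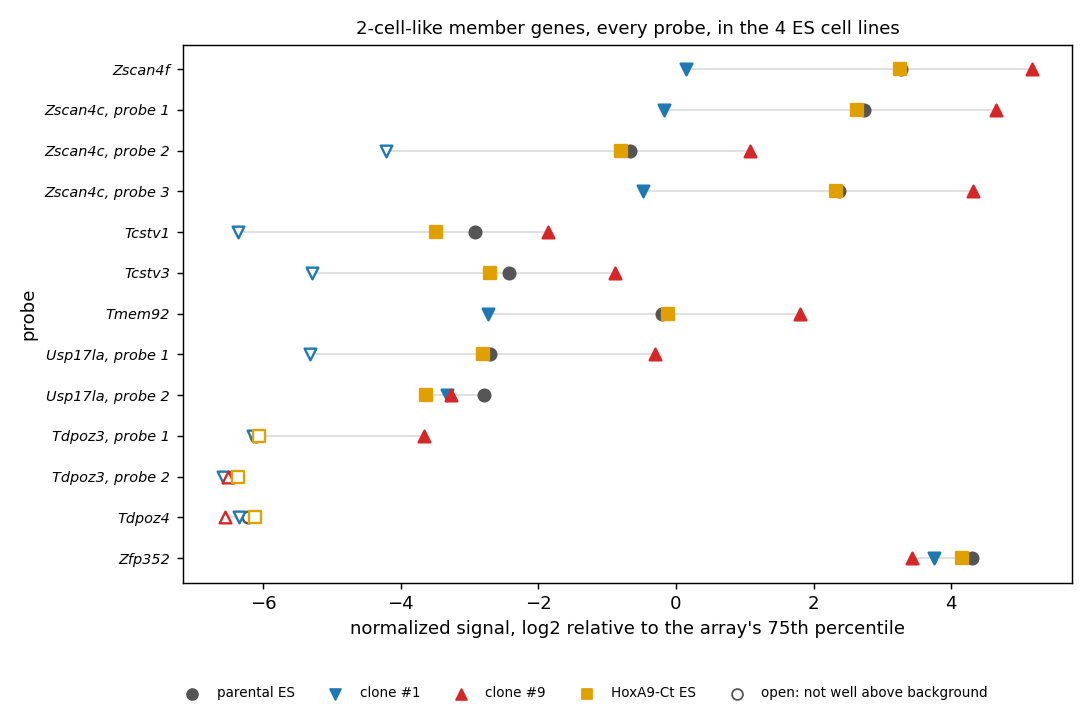
Normalized signal (x axis, log2 relative to the 75th percentile of each array) of the 13 member probes (y axis) in the 4 lines, 1 array per line and no error bars. In 8 probes of 6 genes clone #9 lies at the right, parental ES and HoxA9-Ct ES lie close together and clone #1 lies at the left, while Zfp352, Tdpoz4 and the second probes of Usp17la and Tdpoz3 do not show this order, and the first Tdpoz3 probe is above background in clone #9 alone.

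Zscan4f and Zscan4c encode zinc finger proteins with a SCAN domain and lie in the Zscan4 cluster on chromosome 7. The Zscan4f probe read 2216 in parental ES, 1988 in HoxA9-Ct ES, 247 in clone #1 and 9131 in clone #9. Clone #9 was thus 32.5-fold above clone #1 and 3.73-fold above parental ES, and parental ES was 8.70-fold above clone #1. HoxA9-Ct ES and parental ES differed by -0.02 on the log2 scale, which is less than the spread between spots.

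Zscan4c was read by 3 probes that gave the same order of lines. Its brightest probe read 1522 in parental ES, 1288 in HoxA9-Ct ES, 198 in clone #1 and 6373 in clone #9, a 28.3-fold gap between the clones. The next probe read 1181, 1043, 159 and 5021 in the same order of lines, a 27.8-fold gap. The dimmest read 144, 120.5, 12.0 and 533, and since it was not well above background in clone #1, clone #9 was at least 39.1-fold higher there. Together with the 2 probes of Zscan4a, a neighbouring copy outside the member set, the 6 Zscan4 probes differed between the clones by -5.29 to -4.80 on the log2 scale, and in all 6 HoxA9-Ct ES lay within 0.13 of parental ES.

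Tcstv1 and Tcstv3, small genes of a cluster on chromosome 13 that is active in the early embryo, showed the same order at lower signals. The Tcstv1 probe read 30.2 in parental ES, 18.7 in HoxA9-Ct ES, 2.71 in clone #1 and 69.6 in clone #9. The Tcstv3 probe read 42.6, 32.2, 5.67 and 137 in the same order of lines. Both were not well above background in clone #1 and above it in the other 3 lines, so clone #9 was at least 5.91-fold (Tcstv1) and at least 11.6-fold (Tcstv3) higher than clone #1. Against parental ES, clone #9 was 2.08-fold and 2.91-fold higher.

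Tcstv1 showed the largest gap between HoxA9-Ct ES and parental ES among the members at their brightest probes, -0.56 on the log2 scale. This is more than the spread between spots of such dim probes, but with 1 array per line its spread between cultures is unknown. None of the 13 member probes put HoxA9-Ct ES more than 2-fold from parental ES, where 6.07% of all probes did.

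Tmem92 on chromosome 11 encodes a transmembrane protein. It read 199 in parental ES, 193 in HoxA9-Ct ES, 33.4 in clone #1 and 880 in clone #9, and was well above background in all 4 lines. Clone #9 was 23.1-fold above clone #1 and 4.01-fold above parental ES, and parental ES was 5.77-fold above clone #1. Parental ES and HoxA9-Ct ES differed by 0.09 on the log2 scale. Each of these values is 1 spot on 1 array.

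Usp17la, a deubiquitinase gene of a cluster on chromosome 7, was read by 2 probes that disagreed. The brighter probe read 35.4 in parental ES, 30.1 in HoxA9-Ct ES, 5.58 in clone #1 and 205 in clone #9, so clone #9 was at least 17.4-fold above clone #1 and 5.25-fold above parental ES. The other probe read 33.0, 16.8, 22.2 and 26.3 in the same order of lines, and its clones differed by -0.06 on the log2 scale. It is not known here which transcripts of the cluster either probe binds.

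Tdpoz3 and Tdpoz4, genes of a cluster on chromosome 3 whose proteins carry TRAF and POZ domains, were mostly not well above background. One Tdpoz3 probe read 19.9 in clone #9, well above background, and 3.35, 3.14 and 3.13 in parental ES, clone #1 and HoxA9-Ct ES, which gives at least 1.69-fold between the clones. The other Tdpoz3 probe and the Tdpoz4 probe were not well above background in any line, with signals of 2.33 to 3.09, and have no fold.

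Zfp352, a zinc finger gene on chromosome 4 that is expressed at the 2-cell stage, did not share the order. Its probe read 4532 in parental ES, 3744 in HoxA9-Ct ES, 2996 in clone #1 and 2713 in clone #9, all far above background. Clone #1 was 1.26-fold above clone #9, and both clones lay below parental ES, by -0.55 and -0.88 on the log2 scale. Its spot is among the final eighth of rows on the slide, where 4 of the 13 member probes and 12.7% of all probes are placed. Whether it reads other transcripts than Zfp352 was not tested.

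Averaged over both clones, the members showed little of this. The median difference between the mean of the Nup98-HoxA9 clones and parental ES was -0.49 on the log2 scale, while the SD between the clones was 3.55 for Zscan4f, 3.41 for the brightest Zscan4c probe, 3.20 for Tmem92 and 0.23 for Zfp352. With clone #1 left out the median was 1.90 and with clone #9 left out it was -2.62, so the direction depends on which clone is kept.

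Across the array, 192 probes had clone #9 more than 2-fold above and clone #1 more than 2-fold below parental ES while well above background in clone #9, which is 0.346% of the probes. Among them were 8 member probes, of 6 genes, and 27 probes of other 2-cell-like genes. Of the 192, 133 were well above background in parental ES and only 67 in clone #1. For the rest, the decrease in clone #1 rests on readings near background and is not a measured fold. The reverse arrangement was found for 20 probes (0.0360%). More than 2-fold below parental ES in clone #1 were 8 of the 13 member probes (4.45% of all probes), and more than 2-fold above it in clone #9 were 9 (6.24%). In HoxA9-Ct ES, 177 of the 192 probes (92.2%) lay within 2-fold of parental ES, with a median difference of 0.03 on the log2 scale. Over all probes only 6.07% lay more than 2-fold from it, so this closeness is not particular to the 192.

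**Figure D2:**
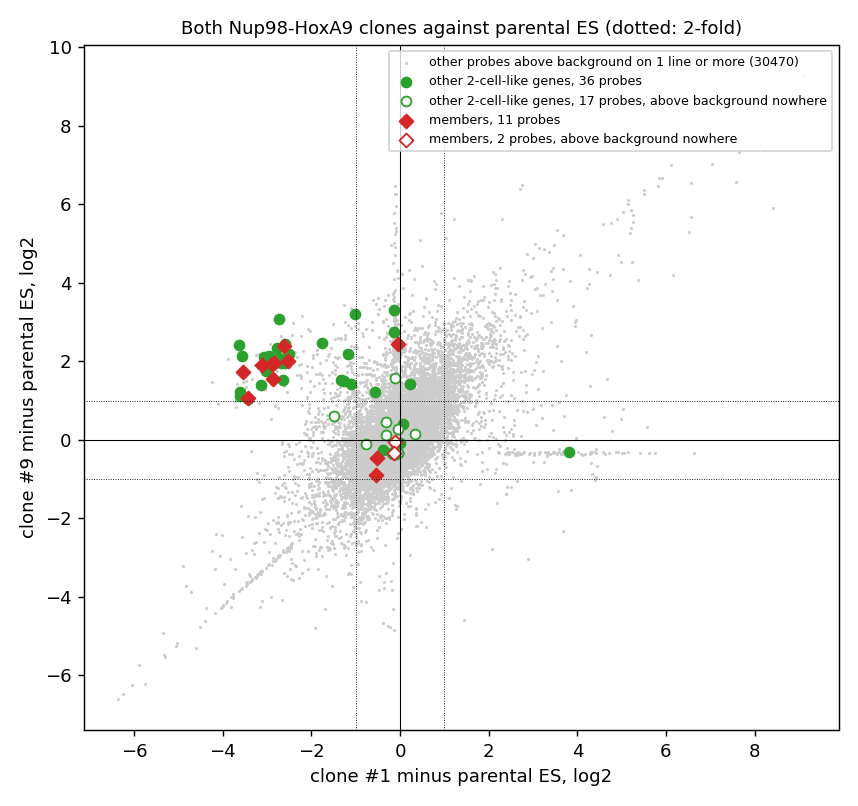
Difference from parental ES on the log2 scale in clone #1 (x axis) and clone #9 (y axis) for each probe well above background in 1 line or more, with the member probes as diamonds and those of other 2-cell-like genes as circles; 1 array per line, no error bars. A group of 8 member and 27 other probes sits at the upper left, lower in clone #1 and higher in clone #9 than parental ES, away from most probes.

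A list of 48 other genes of the 2-cell-like state was read in the same way, 34 of them with a probe. It was drawn up with earlier results of these data known and so is not independent of the members. Of the 34 genes, 20 were more than 2-fold lower in clone #1 than in clone #9 and 1 was higher, beside 5.49% and 3.20% of all probes. Their median was -2.82 (log2), or -2.28 with the same floor. Well above background in at least 1 line were 24 of the 34. Of these 24, 19 were lower, 4 lay within 2-fold (AF067063, Trim43c, B020031M17Rik and the brightest probe of Sp110), and 1, Pramel5, was higher. Of the 19, Pramel17 and Obox6 were above background in clone #9 alone, and the gap of Pramel17 is bounded only at 1.96-fold or more.

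Many of the 19 genes belong to families of repeated copies. Zscan4a read 1329 in parental ES, 1112 in HoxA9-Ct ES, 170 in clone #1 and 5540 in clone #9 at its brightest probe, a 28.6-fold gap between the clones. AF067061 on chromosome 13 read 5264, 4427, 418 and 13600 in the same order of lines, a 28.5-fold gap, and Gm4340 on chromosome 10 read 2044, 1626, 185 and 4620, a difference of -4.46 on the log2 scale. Both carry the GATTNAATC letters in the windows described above.

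A group of genes on chromosome 12, Gm2016, Gm2022, BB287469, Gm8300 and Gm5039, followed the same order of lines. BB287469 and Gm2022 read 439 and 595 in parental ES, 381 and 473 in HoxA9-Ct ES, 70.6 and 95.8 in clone #1 and 2632 and 2552 in clone #9. The gap between the clones was 32.7-fold in BB287469, 28.4-fold in Gm8300, 23.4-fold in Gm2022, 6.84-fold in Gm2016 and at least 10.8-fold in Gm5039. Gm2016 had the smallest gap at its brightest probe, yet its next probe gave -4.70 on the log2 scale.

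Gm428 on chromosome 4 showed the widest gap of the list at the brightest probes, reading 339 in parental ES, 329 in HoxA9-Ct ES, 49.1 in clone #1 and 3149 in clone #9, which is 56.4-fold between the clones and 8.41-fold between clone #9 and parental ES. E330014E10Rik on chromosome 5 was at least 19.4-fold higher in clone #9 than in clone #1 at its brightest probe. Another of its probes, well above background in both clones, gave only 2.30-fold. The Pramel genes Pramel16, Pramel19, Pramel31 and Pramel17, members of a family of leucine-rich repeat genes on chromosome 4, gave at least 21.7-fold, at least 14.6-fold, 24.7-fold and at least 1.96-fold.

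The Usp17la relatives Usp17lb, Usp17lc and Usp17ld were at least 7.88-fold, at least 4.13-fold and at least 5.70-fold higher in clone #9 than in clone #1. Arg2, which encodes the mitochondrial arginase, read 13.4 in parental ES, 18.4 in HoxA9-Ct ES, 3.80 in clone #1 and 81.8 in clone #9, at least 6.95-fold between the clones. Obox6, an oocyte homeobox gene, was well above background only in clone #9, at 115 against 9.22 in clone #1, which is at least 9.75-fold.

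**Figure D3:**
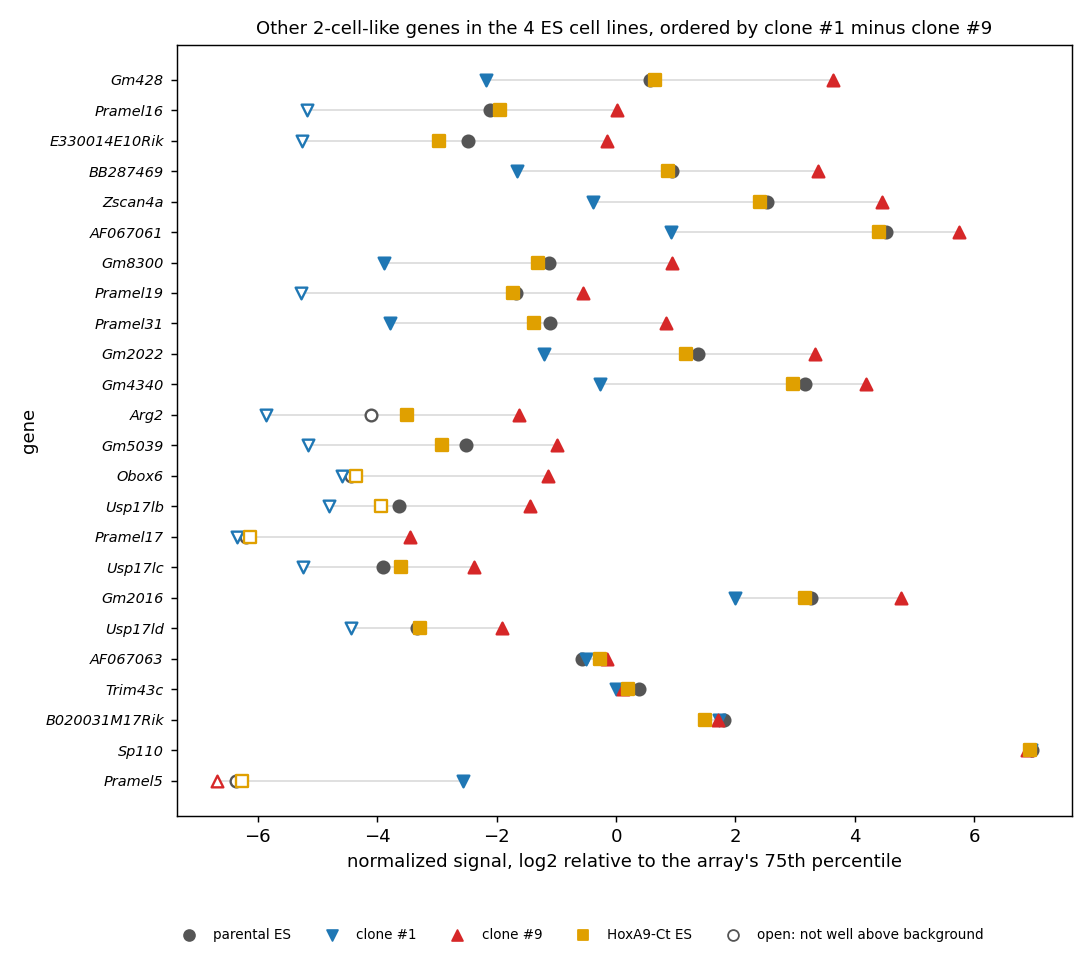
Normalized signal (x axis, log2 relative to the 75th percentile of each array) of the 24 other 2-cell-like genes (y axis) well above background in at least 1 line, each at its brightest probe, 1 array per line and no error bars. The upper 19 genes have clone #9 at the right and clone #1 at the left, although in Obox6 and Pramel17 clone #1 lies close to parental ES. The next 4 have all lines close together, and Pramel5 has clone #1 alone at the right.

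Other members of the list gave no such gap. Pramel5 was well above background in clone #1 alone, reading 37.7 there and 2.79, 2.47 and 2.73 in parental ES, clone #9 and HoxA9-Ct ES. Its spot, too, is among the final eighth of rows. That region also held 39 (20.3%) of the 192 probes with clone #9 above and clone #1 below parental ES, against 12.7% of all probes. Of 9 list genes with several probes above background, 8 had all of them on the same side of a 2-fold decrease and 1, Sp110, did not: its brightest probe read between 25600 and 29970 in every line, while another read 20.1, 21.2, 9.55 and 206 in the usual order and the third differed by -1.78 on the log2 scale between the clones, so that 2 of its 3 probes showed the gap. Tdpoz2 was more than 2-fold lower in clone #1 but was above background in no line.

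In limma, which took the spread from the 2 clones and called 1.41% of all probes between Nup98-HoxA9 ES and parental ES, 0 of the 34 other 2-cell-like genes passed the adjusted p of 0.05 and 6 had an unadjusted p under 0.05, as did 6.26% of all probes. The number of calls over all probes depends on the processing: 781 here, it was 0 with quantile normalization, 0 with only probes above background in at least 1 line and 1243 with the trend and robust options of limma. The fit gave every probe the same standard error of 0.556 on the log2 scale, so a probe's own gap between the clones does not enter its p. The lowest adjusted p, 0.0956 (limma), belonged to Pramel5 and the next, 0.189, to Obox6. Each of these was above background in only 1 of the clones, with an SD between the clones of 2.91 and 2.44. With the trend and robust options 0 of the 34 passed as well. The contrast averages the clones, which lie on opposite sides of parental ES in many of these genes. In Zscan4a, for example, clone #1 lay at -2.92 and clone #9 at 1.92 from it (log2). The 0 calls therefore do not show that these genes were unchanged in either clone.

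Regulators of the state were read in the same way. Over all probes 8.69% were more than 2-fold apart between the clones, so that few genes would be in lists this short. Neither Dux nor Duxf3, the activator itself, had a probe. Of 5 measured activators, 0 were more than 2-fold apart: Dppa2, an upstream activator of Dux, differed by -0.44 (log2, clone #1 minus clone #9) and Nelfa by -0.07. Of 20 measured repressors, 0 were more than 2-fold apart and their median was 0.05. Chaf1a, a subunit of the histone chaperone CAF-1 whose loss is known to raise the 2-cell-like fraction, had the largest difference of the repressors and read 3445 in parental ES, 3182 in HoxA9-Ct ES, 3075 in clone #1 and 1753 in clone #9. It was 1.00 on the log2 scale, just inside the 2-fold limit, and rests on 1 probe. Chaf1a and Lin28a, an RNA-binding protein, were the 2 repressors more than 2-fold lower in clone #9 than in parental ES (-1.12 and -1.22, log2), as were 4.47% of all probes. In clone #1 the differences from parental ES were -0.12 and -0.78, so Lin28a was lower in both clones and differed by 0.44 between them. Trim28, the corepressor that silences endogenous retroviruses, had the smallest difference between the clones, at 0.00. In limma 0 of the 5 activators and 0 of the 20 repressors were called between Nup98-HoxA9 ES and parental ES, and 0 and 0 had an unadjusted p under 0.05.

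Markers of other cell states bear on what the lines are. All 11 markers of pluripotent ES cells were well above background in all 4 lines, and their differences between the clones ran from -0.27 (Zfp42, also known as Rex1) to 0.60 (Nanog), the smallest being -0.04 (Fgf4). Markers of primitive endoderm, the extraembryonic layer beside the epiblast, were higher in both clones than in parental ES in 6 of 7 genes by more than 2-fold, against 3.73% of all probes in clone #1 and 6.24% in clone #9. In HoxA9-Ct ES 5 of the 7 were more than 2-fold lower than in parental ES, against 2.43% of all probes. They did not part the clones, with a median of -0.25 and the largest gap in Dab2 (-0.55) and the smallest in Lama1 (0.12). The summed level of this list, relative to the 75th percentile, was 5.11 in parental ES, 4.05 in HoxA9-Ct ES, 5.38 in clone #1 and 5.30 in clone #9 (log2). The sum is mostly Lama1, whose own levels were 5.07, 4.01, 5.25 and 5.13 in the same order of lines. Lama1 was the only gene of the 7 not more than 2-fold higher in the clones.

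Of the trophectoderm markers, 2 of 7 were more than 2-fold lower and 1 was more than 2-fold higher in clone #1 than in clone #9, and of the germ line markers 1 of 6 was lower and 0 were higher, against the 5.49% and 3.20% of all probes given above. The medians were -0.62 and -0.56 (log2, clone #1 minus clone #9). The largest gaps were in Gata3 (-3.04), which was well above background in clone #9 alone and so at least 2.15-fold higher there, and in Tex101 (-2.13), a germ cell surface protein. Elf5 went the other way (1.32) and was well above background in clone #1 alone. The smallest were in Tfap2c (0.29) and Ddx4 (0.09). The summed level of the trophectoderm list was 3.81 in parental ES, 3.69 in HoxA9-Ct ES, 4.51 in clone #1 and 5.30 in clone #9, and that of the germ line list was 5.37, 5.33, 7.16 and 7.60. The germ line sum is mostly 1 gene, the homeobox gene Rhox5, whose own levels were 4.99, 4.88, 7.06 and 7.49. In clone #9 the trophectoderm sum is mostly Krt18, whose own levels were 2.48, 2.55, 3.23 and 4.70 in the same order of lines. Whether such cells were present, and whether they had any part in the member values, was not tested.

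In the primed epiblast list 2 of 5 genes were lower and 1 was higher in clone #1 than in clone #9 by more than 2-fold. Of all probes 5.49% were lower and 3.20% higher. Of the lower pair, Fgf5 was not well above background in either clone, and Lef1 (-1.43) was not in clone #1, which gives at least 1.63-fold. The higher gene, Otx2 (1.13), was above background in all lines, and Pou3f1 (0.14) lay nearest to 0. Against parental ES all 5 genes were lower in both clones, with medians of -1.37 in clone #1 and -1.21 in clone #9. In each clone 3 were more than 2-fold lower, beside 4.45% of all probes in clone #1 and 4.47% in clone #9. Of 4 neural genes 0 were more than 2-fold apart between the clones, beside 8.69% of all probes. The largest difference was in Tubb3 (-0.47) and the smallest in Sox1 (0.16). Primitive streak genes were well above background in at most 1 of 4 per line. Housekeeping genes had a median of 0.18, close to the 0.17 of all probes.

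**Figure D4:**
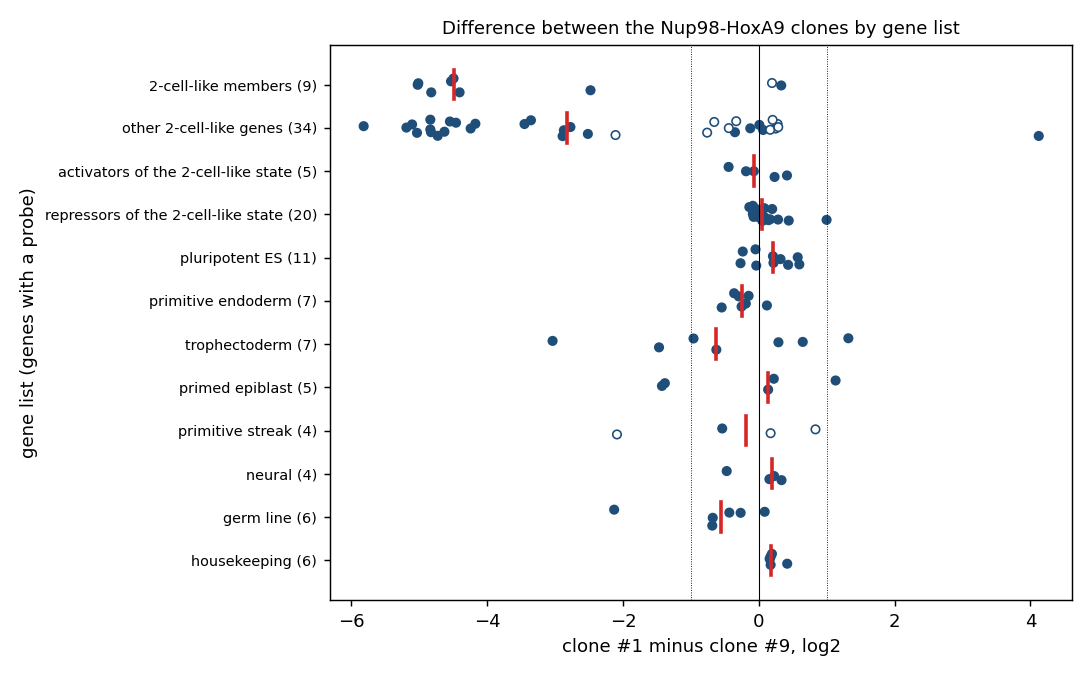
Difference between the clones (x axis, log2, clone #1 minus clone #9) for each gene at its brightest probe, by list (y axis, number of genes with a probe in parentheses). Red bars are medians, open points were well above background in no line and dotted lines mark 2-fold. The members (median -4.49) and other 2-cell-like genes (median -2.82) reach far to the left, while the lists of activators (median -0.07) and repressors (median 0.05) stay within 2-fold.

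The 10 genes outside the member set whose 4 signals were most like the mean member profile were found among 14099 genes by the distance between their normalized log2 signals over the 4 lines, each centred on its own mean. In order of distance they were Pramel20 (0.14), Gm7104 (0.20), Pramel37 (0.26), Gm5039 (0.33), Gm5 (0.39), Slc23a3 (0.41), Pramel39 (0.44), Hdc (0.47), Gm13043 (0.49) and Fzd8 (0.53). The distances of the members themselves to this profile ran from 0.50 (Tcstv3) to 2.95 (Zfp352). The mean profile was taken over the 8 members above background in at least 1 line, Zfp352 and Tdpoz3 included. Its gap between the clones is therefore narrower than that of most members. Genes with wider gaps, such as Zscan4a (-4.84) and AF067061 (-4.84, log2), are not among the 10. Only Gm5039 of the 10 was on the list of other 2-cell-like genes. With 4 points per profile, many genes can lie this close.

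The nearest gene, Pramel20, read 636 in parental ES, 514 in HoxA9-Ct ES, 122 in clone #1 and 2219 in clone #9. Gm7104 on chromosome 12 read 162, 143, 38.0 and 507 in the same order of lines. Hdc, the histidine decarboxylase, Slc23a3, of the nucleobase and ascorbate transporter family, and Fzd8, a Wnt receptor, were dim, reading 89.6, 27.4 and 52.0 in clone #9 and 8.11, 2.39 and 4.03 in clone #1. The Pramel family was looked at after these values were seen. Of its 28 genes with a probe, 7 had clone #9 more than 2-fold above and clone #1 more than 2-fold below parental ES, with 16 above background in at least 1 line and a family median of -1.08 between the clones.

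The 192 probes with this arrangement, 67 of them well above background in clone #1, named 77 genes, spread over many chromosomes. Chromosome 4, which carries Gm428 and several Pramel genes, held 12 of them, 15.6% against 5.99% of all named genes on the array. Chromosomes 1, 5 and 12 held 8 each (10.4%, against 5.65%, 5.67% and 3.08% of all named genes), chromosome 11 held 7 (9.09% against 7.84%) and chromosome 7, with the Zscan4 and Usp17l clusters, 7 (9.09% against 8.98%). None of the member genes and other 2-cell-like genes with a probe lay on chromosome 15. Genes of 1 cluster share sequence and may share a signal, so these counts are not of separate events.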

How the data were processed

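Total RNA of the 4 lines was labelled with Cy3 and hybridised to 1 Agilent SurePrint G3 8×60K mouse array per line in 1 colour. The authors extracted the images with Agilent Feature Extraction 10.10.1.1 at its default settings, and the deposited spot intensity values are the processed signal (background subtracted and spatially detrended), its error, median pixels and flags. A series matrix deposited beside them holds the same values, each array multiplied by a constant whose choice is unstated.

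Without control spots, 59305 spots remained per array. Each processed signal was divided by their 75th percentile and put on the log2 scale, outlier spots were dropped before a probe's spots were averaged, and a gene was read at its brightest probe. A fold against a line not well above background is a lower bound, taken against the lowest signal well above background on that array or the probe's own, whichever is higher. Symbols came from RefSeq accessions (GRCm38.p6, while the array annotation is mm9), matched for 26762 of 55681 probes. limma 3.58.1 in R 4.3.3 was fitted to 3 groups with 1 residual degree of freedom and tested on simulated data. Other values came from Python 3.11.15 with pandas 2.3.3 and Biopython 1.88 for alignment. In normexp the median pixel replaced the mean pixel, which was not used here. The number of arrays limits the precision.

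The members and lists were chosen with earlier results of these data known. Named were all members with a probe, other 2-cell-like genes above background and more than 2-fold apart, the genes with the largest and smallest difference of each marker and regulator list, and the 10 nearest profiles. Further genes were named after their values were seen.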

Additional observations from a re-analysis of the deposited data

Results flagged for a closer look

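The clones of the Nup98-HoxA9 group moved in opposite directions from parental ES, which set 2 results apart. The median over the 9 member genes differed by -4.49 on the log2 scale between clone #1 and clone #9, with clone #1 more than 2-fold below and clone #9 more than 2-fold above parental ES at 1 probe or more of 6 genes. The median over 34 other 2-cell-like genes differed by -2.82 in the same direction, with the same arrangement at 1 probe or more of 18 genes. Neither difference was tested, since each clone is 1 array. The members were selected on this gap. Among the 18 genes, clone #1 was not well above background at the probes of Usp17lb, Usp17lc and Sp110. Their decrease from parental ES is bounded only at 1.74-fold, 1.43-fold and 1.88-fold or more. For Arg2 neither parental ES nor clone #1 was well above background, so its decrease has no bound.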

How the results depend on the processing

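With normexp background correction (offset 50), which adds a constant to every signal and so shrinks differences of dim probes, the median over members was -1.39 for clone #1 minus clone #9, -0.58 for clone #1 minus parental ES, 0.84 for clone #9 minus parental ES and -0.026 for the mean of the clones minus parental ES, that over other 2-cell-like genes was -0.63, 0 of these were more than 2-fold higher in clone #1, and limma called 2 of them. Members more than 2-fold lower in clone #1 than in clone #9 numbered 5 under normexp, 6 with the floor and 7 under each other alternative. The same count of other 2-cell-like genes, 20 in the main processing, was 14 under normexp and 18 with the floor. Under the remaining alternatives it was 19 to 21. With a floor at the lowest signal above background the same medians were -3.54, -1.73, 1.54 and -0.25, that of the other genes was -2.28, and limma called 1 of them. With genes above background in at least 1 line alone, clone #1 minus parental ES was -2.74 over members and the other genes gave -4.21 between the clones. Where all probes of a gene were averaged, clone #9 minus parental ES was 1.19, the mean of the clones minus parental ES was -0.61 and the other genes gave -2.69. Without the probes in the final eighth of rows, an alternative chosen after seeing the data, clone #1 minus parental ES was -2.74, the other genes gave -2.69 and 0 of them were more than 2-fold higher in clone #1. Leaving out a clone moved the mean of the clones minus parental ES over members between -2.62 and 1.90. In all, 82 of 105 recomputed values moved by less than the spread between spots or, for counts, stayed within 1.5 times. Quantile normalization, the median of each array, the series matrix and keeping outlier spots moved none of the counts and medians further. For limma, quantile normalization and the filter on probes above background called 0 of all probes, so their 0 calls among the other genes say nothing about stability. Leaving out a clone in limma was not run, since no residual degree of freedom is left, and no paired analysis was possible because the groups share no replicate pair. Probes near background limit the gaps of Tcstv1, Tcstv3, Usp17la, Tdpoz3 and Tdpoz4 to bounds or to none.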
